A study of Mus musculus with 6 samples.

Results

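The 82 genes described here encode proteins of the cytosolic ribosome. They are the protein-coding genes whose mouse symbol is Rpl or Rps followed by a number, alone or with a, l, x or l1, together with Rplp0, Rplp1, Rplp2 and Rpsa. Among 43346 gene identifiers in the count tables, 85 symbols fit this pattern, and 3 of them (Rpl6l, Rps12l1 and Rps4l) are annotated as pseudogenes and were left out. The members comprise 43 proteins of the large subunit, 30 of the small subunit, 3 of the stalk (Rplp0, Rplp1 and Rplp2) and 6 copies with restricted or additional use (Rpl3l, Rpl10l, Rpl22l1, Rpl39l, Rpl7l1 and Rps27l). They lie on 19 chromosomes, with 14 on chromosome 7, 7 each on chromosomes 9 and 11, and 4 on the X chromosome.

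RNA was sequenced from livers of C57BL6 mice at an age of 3 months. The groups are Control (3 libraries) and DKO (3 libraries), in which β-catenin (Ctnnb1) and γ-catenin (Jup) are both deleted in hepatocytes only, so that other liver cells keep both genes. Which alleles the Control mice carry and what drives the deletion are not stated in the labels. The labels number the libraries within a group without saying that each is a separate animal, so p-values measure the spread between these libraries, which may be technical.

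Ribosomal proteins fold onto ribosomal RNA in the nucleolus and cytoplasm and make up, with that RNA, the subunits that read messenger RNA and join amino acids. Their mRNAs are among the most abundant of most cells, liver included. In mammals many of them begin with a run of C and T bases, the terminal oligopyrimidine (TOP) tract, through which the mTOR pathway and the protein LARP1 set how strongly they are translated. Most of these genes have also left many processed pseudogenes, copies of their mRNA pasted elsewhere in the genome, so that a read from such an mRNA can align to several places and then drop out of a count table.

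The DKO libraries held far fewer reads from liver transcripts than the Control libraries, and this touches every comparison below. Control libraries had 12320487 to 15869639 reads on genes, whereas DKO replicates 1, 2 and 3 had 309731, 525037 and 1491237. Ctnnb1 had 2945, 2896 and 2650 reads in Control and 0, 52 and 65 in DKO (edgeR adjusted p = 0.171), and Jup had 339, 270 and 196 against 6, 1 and 11 (edgeR adjusted p = 0.0847). In proportion to abundant liver transcripts, a measure explained further on in which 1 is the Control proportion, Ctnnb1 was at 0.854 in DKO replicate 2 and 3.34 in replicate 3, so it was not low there against other liver RNA. Its log2 fold change of -2.26 was near the -2.36 that is the median of other genes with many reads. The Jup reads were fewer than expected from background in all 3 libraries, as its ratios below 0 (-70.2, -1.69 and -7.19) show. Reads from undeleted exons or from other cells would still be counted. The Ctnnb1 values do not show the loss that the label states. Jup was not detected above background in DKO, on few reads, and its deletion was not tested. DKO stands below for libraries labelled DKO, also wherever a direction is given. The 8 hepatocyte markers, all detected, took 10.4% to 11.9% of nuclear gene counts in Control, but 0.217%, 5.37% and 1.25% in DKO. The mitochondrial share of gene counts was 6.34% to 6.57% for Control against 6.27%, 14.4% and 62.7% for DKO. Reads with several alignments, which are in no gene's count, made up 18.1% to 20.2% of the Control reads and 9.90%, 14.4% and 28.6% of the DKO reads. Markers of neurons summed to 15.1 to 18.7 CPM (gene reads scaled to a common library total) in Control, against 227 to 513 in DKO, and those of skeletal muscle, testis and T cells were likewise more frequent per read in DKO. Skeletal muscle markers had 1, 2 and 1 reads in Control but 19, 14 and 21 in DKO, testis markers 1, 0 and 0 but 22, 15 and 62, and T cell markers 16, 5 and 7 but 32, 31 and 84. Defining genes of these types (Acta1, Prm1, Prm2 and Trac) were nevertheless at 0 in every DKO library. The part of these differences in the results below was not tested, except where a value is given beside them.

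The bases around the start of transcription show the TOP feature of the family. RefSeq on GRCm38.p6 holds promoter windows for 62 of the 82 members, 74 windows in all because some genes have several starts. A run of at least 8 C or T bases that covers the first transcribed base occurred in 17 of the 74 windows (23.0%), compared with 3.86% of all 32851 windows. Lines below give 15 bases before and 15 from the annotated start onward, 5′ to 3′ on the strand of the gene, with the run in capitals, for members with long or short tracts that recur in the results.
Rpl7a (chr2:26910792-26910821, plus strand): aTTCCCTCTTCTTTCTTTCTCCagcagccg
Rpl27a (chr7:109519180-109519209, plus strand): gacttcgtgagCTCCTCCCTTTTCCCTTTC
Rpl35 (chr2:39005117-39005146, minus strand): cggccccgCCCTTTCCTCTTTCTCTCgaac
Rps18 (chr17:33955651-33955680, minus strand): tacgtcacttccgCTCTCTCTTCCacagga
Rps6 (chr4:86857353-86857382, minus strand): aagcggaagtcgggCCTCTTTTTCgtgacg
Rplp2 (chr7:141447636-141447665, plus strand): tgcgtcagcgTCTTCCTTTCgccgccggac
Rps27 (chr3:90213634-90213663, minus strand): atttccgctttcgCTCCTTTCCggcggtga
Rpl3l (chr17:24727811-24727840, plus strand): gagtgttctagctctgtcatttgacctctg
Rpl10l (chr12:66284387-66284416, minus strand): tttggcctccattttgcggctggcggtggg
The first 7 windows hold a run over the annotated start, and the last 2, from copies that were hardly read in liver, hold none. Windows of abundant members such as Rplp0, Rpl4, Rps12 and Rpsa also hold none, so the lines shown do not relate the run to the level. Across the full windows of 250 bases before to 50 after the start, CCGGAAG on either strand, a core bound by ETS factors such as GABP, occurred in 35.1% of the member windows and 8.86% of all windows. TATAAA on either strand occurred in 9.46% and 13.6%. A match describes these letters only, and a window without a run can also have a start that is annotated a few bases off.

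In Control liver nearly all members were abundant. Their median level was 251 CPM (interquartile range 188 to 335), while the median of all 21474 protein-coding genes was 1.60 CPM. Of the 82 members, 73 (89.0%) were among the 1000 protein-coding genes with the most Control reads, which are 4.66% of such genes. The summed reads of the members took 2.13%, 2.25% and 2.38% of gene counts in Control replicates 1, 2 and 3. The coefficient of variation over the Control libraries had a median of 8.17% among members and 8.47% among other genes. Counts in CPM favour long transcripts, so levels of different members are given per kilobase (kb) of exonic length.

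Rplp1, a protein of the stalk that recruits elongation factors, had the highest level at 1340 ± 211 CPM per kb (SD, n = 3), on chromosome 9 at 61913284 to 61914542 (mm10). Its Control counts were 8873, 9461 and 9470. Rps27l, a copy of Rps27 and a known p53 target, followed at 490 ± 69.6 CPM per kb, and Rpl36, a short protein of the large subunit, at 487 ± 32.2. Rpl13a, known also from a complex that silences translation of inflammatory mRNAs, was next at 425 ± 65.8 CPM per kb. Rplp1 lay above the range of all others, while Rps27l and Rpl36 differed by less than their spread. Ordered by level, 71 of 77 neighbouring pairs among the 78 members with at least 5 CPM had overlapping Control ranges.

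The stalk and core members covered a wide range. Rplp0, the stalk base that holds the P1 and P2 proteins, reached 238 ± 14.7 CPM per kb, and Rplp2 reached 87.3 ± 3.86. Among large-subunit proteins, Rpl10, which joins last near the catalytic centre, reached 242 ± 34.4 CPM per kb, Rpl26, known to bind the p53 mRNA, 236 ± 14.7, and Rpl41, the shortest of the family, 180 ± 19.7. Rpl11 and Rpl5, which together with a small ribosomal RNA bind the p53 regulator MDM2, reached 124 ± 5.19 and 97.2 ± 13.2 CPM per kb. Rpl3, a large protein that reaches the catalytic centre, was lower at 53.8 ± 5.73 CPM per kb. In the small subunit Rps27, Rps6 (the target of S6 kinase), Rps4x and Rpsa (also described as a laminin receptor) reached 218 ± 45.7, 190 ± 17.7, 171 ± 17.8 and 157 ± 9.12 CPM per kb. Rps19, the gene first linked to Diamond-Blackfan anaemia, reached 61.3 ± 2.92. These are relative levels of counted reads and not of the proteins, which the ribosome holds in equal numbers apart from the stalk.

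The tissue-restricted copies were separated from the rest. Rpl3l, the copy used in heart and skeletal muscle, had 0, 1 and 0 Control counts on chromosome 17 at 24727820 to 24736143, and its parent Rpl3 had 2424, 2378 and 2330. Rpl10l on chromosome 12 and Rpl39l on chromosome 16, both known from male germ cells, had 0 in all 3 Control libraries. A count of 0 over them allows up to 3 counts, or 0.0712 CPM. Their parents Rpl10 and Rpl39 had 8860, 7129 and 5165 and 3286, 3531 and 4251. The other copies were read freely. Rpl22l1, the copy of Rpl22, had 2154, 2214 and 2343 Control counts against 2496, 2559 and 2334 of Rpl22, and Rps27l had 5408, 5638 and 5595 against 3020, 2955 and 3469 of Rps27. Rpl7l1, a relative of Rpl7, had 1330, 948 and 923 against 5338, 4211 and 3437. These counts are not scaled for length. In CPM per kb of exonic length Rpl22l1 reached 81.2 against 60.7 for Rpl22. Rps27l reached 490 against 218 for Rps27, and Rpl7l1 21.6 against 114 for Rpl7. Nearly all of the Rps27 sequence also occurs in another gene, as given below, so its order against Rps27l is uncertain.

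**Figure D1:**
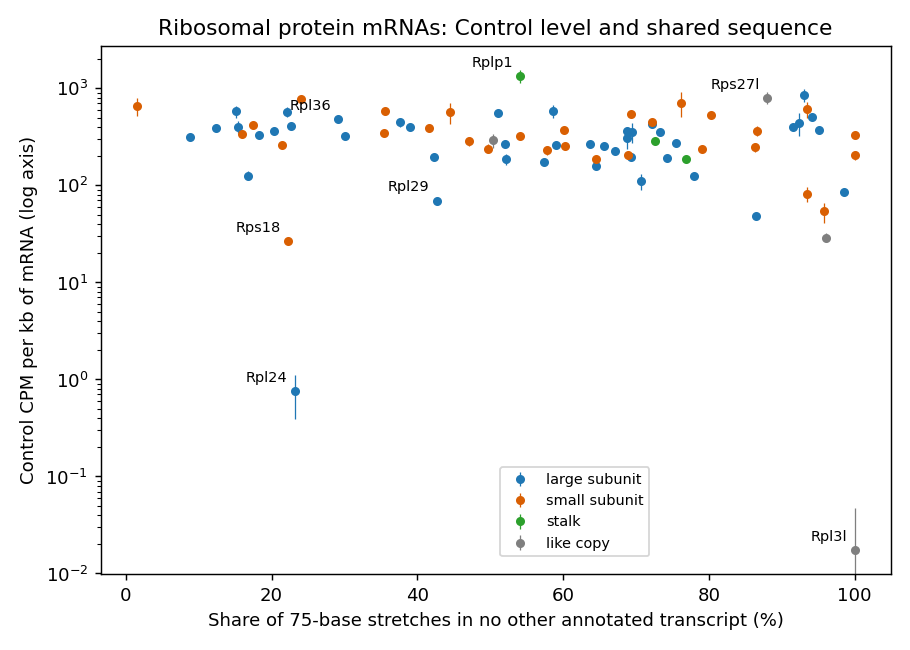
Control level of each member in CPM per kb of its principal mRNA (log axis, mean with SD over 3 libraries) against the share of its 75-base stretches found in no other annotated transcript, coloured by subunit. Rpl24 and Rpl3l lie far below the others, Rps18 and Rpl29 are the next lowest that share most of their sequence, and Rpl10l and Rpl39l are at 0 and cannot be drawn on a log axis.

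Shared sequence limits what these levels mean. In GENCODE M21, 78 of the 82 principal mRNAs shared at least 1 stretch of 75 bases with a transcript of another gene, and 77 of them with a pseudogene. The median member shared with 5 pseudogenes and had 64.1% of its stretches to itself, and 28 members had under 50%. Rps27 had only 1.48% to itself, because 98.5% of its stretches also occur in the retrotransposed copy Rps27rt. Rpl7a and Rpl21 shared stretches with 64 and 60 pseudogenes. Rps3 shared none. The read length is not stated in the labels, and untranscribed copies outside the annotation were not searched. Across the 78 members with at least 5 CPM, the share of own stretches and the level per kb of mRNA had a Spearman rho of -0.19. The median level was 387 CPM per kb of mRNA in the 15 members with under 25% of stretches to themselves and 302 in the 22 with at least 75%. Length and level per kb of mRNA had a rho of -0.63, but length enters both quantities. The ratio of the 90th to the 10th percentile of the level was 5.02 per exonic kb and 14.3 per kb of stretches found nowhere else.

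Some members stood out at the low end. Rpl24, which forms a bridge to the small subunit and lies on chromosome 16 at 55966275 to 55971435, had only 9, 10 and 3 Control counts (0.494 ± 0.235 CPM per kb), and 23.2% of its stretches were its own. The transcript Gm28037, on the same strand, covers 47.0% of its exonic bases and had 0 reads in every library. Reads that fall on both cannot be assigned to either by a counter that drops ambiguous reads, and the settings used are not given. Rps18, a protein of the head of the small subunit, had 216, 223 and 192 counts with 22.2% of its stretches its own. Rpl29 had 831, 678 and 650, with 42.6% its own and 42 pseudogenes. Not every member with little sequence of its own was low. Rps27 and Rpl9, with 1.48% and 8.73% of their stretches to themselves, had 228 and 235 CPM. For Rpl3 the pseudogene Rpl3-ps1 was itself counted with 939, 1011 and 996 reads in Control. Opposite-strand neighbours covered much of Rpl35 (Wdr38, 66.2% of exonic bases) and Rpl23a (Tlcd1, 59.7%), and without a stated strand setting their reads cannot be told apart.

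Members differed in how far the Control libraries spread. The ratio of Control replicate 3 to replicate 1 in CPM ran from 0.751 (Rpl10) to 1.76 (Rps14) among the members with at least 5 CPM, with a median of 1.09, while the median of other genes was 1.01 (interquartile range 0.895 to 1.17). Rps14 had 5589, 6226 and 7627 counts in Control replicates 1, 2 and 3, and Rpl10 had 8860, 7129 and 5165.

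The comparison between the groups depended on what the members were measured against. As a share of all gene counts the members took 2.25% ± 0.13 (SD, n = 3) for Control. In DKO replicates 1, 2 and 3 they took 0.324%, 1.31% and 0.607% (mean 0.746% ± 0.507). The groups did not overlap, and the difference was -1.50 percentage points (two-sided exact permutation test, p = 0.1, the smallest that 3 against 3 libraries allow). As a share of nuclear gene counts the members took 2.27%, 2.40% and 2.54% in Control and 0.346%, 1.53% and 1.63% in DKO, again without overlap (exact permutation p = 0.1). Against the reads of 162 abundant nuclear genes outside the family (each with over 30000 Control reads in sum) the order was the opposite. Per 1000 reads of those genes the members had 49.2, 52.3 and 55.5 in Control and 281, 62.3 and 237 in DKO (exact permutation p = 0.1). In bulk liver, fewer cells of a type and less RNA per cell cannot be told apart.

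**Figure D2:**
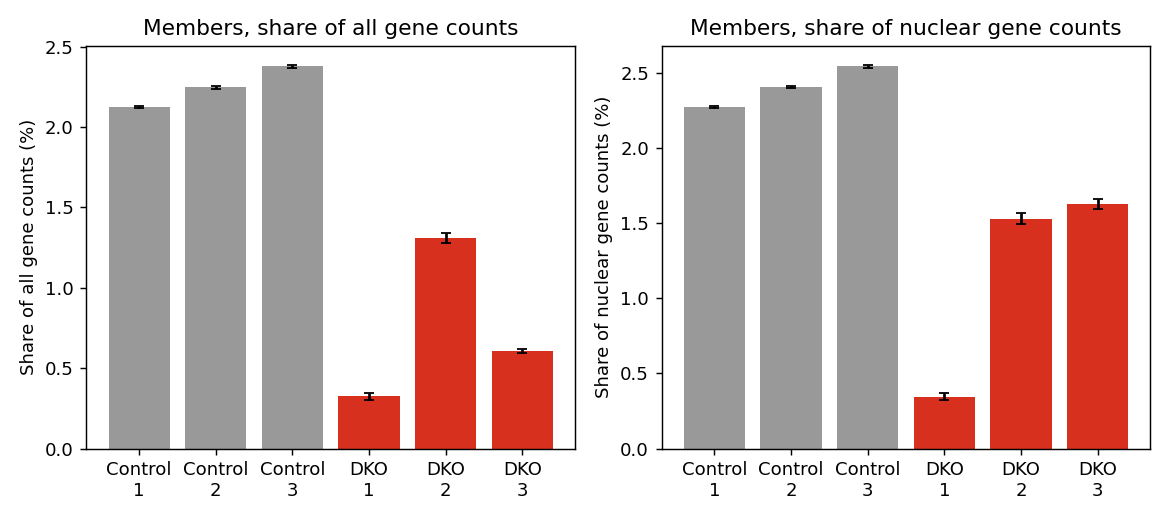
Summed reads of the 82 members as a share of all gene counts (left) and of nuclear gene counts (right) in each of the 6 libraries, with 95% Wilson intervals for counting error. All 3 DKO bars lie below all 3 Control bars in both panels, and DKO replicate 3 rises from 0.607% to 1.63% once mitochondrial transcripts are left out.

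In edgeR's quasi-likelihood test over all 15561 tested genes, 1 of 79 tested members was called higher in DKO and 0 were called lower at an adjusted p under 0.05. Over all tested genes 31.3% were called higher and 12.8% lower. An unadjusted p under 0.05 was reached by 10 of the 79 members in edgeR. DESeq2 called 62 members lower, where it called 30.7% of all tested genes lower. Rpl3l, Rpl10l and Rpl39l did not pass the count filter. The median log2 fold change of the tested members was -1.92 (interquartile range -2.12 to -1.64), compared with -0.08 over all tested genes and -2.36 over 1730 other nuclear protein-coding genes with at least 3000 Control reads. Of the 76 members with as many reads 0 were called lower, while 18.7% of those 1730 genes were. In scaled CPM 77 of 79 members lay lower in every DKO library than in every Control library, against 36.4% of all tested genes and 93.4% of the 1730. Only Rpl24 lay higher in every DKO library, as did 34.0% of all tested genes, and Rps18 overlapped between the groups. The median standard error of a member was 1.05 on the log2 scale. The median was -1.93 for the large subunit, -1.85 for the small subunit, -1.86 for the stalk and -1.95 for the 3 tested copies.

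The count of lower members depended on the tool, on the filter, on the scaling and on which DKO libraries were kept. Without DKO replicate 1 edgeR called 48 members lower (22.0% of all genes tested then), and without DKO replicate 2 it called 21 (26.7%). Without DKO replicate 3 it called 1 member lower, beside 1899 of 15836 tested genes. With all 6 libraries it called 57 without a count filter, beside 4650 of 30209 tested genes, and 27 with DESeq2's size factors (23.0% of all tested genes). Scaled on the abundant liver genes, without background subtraction, the median of the members turned to 1.94. The median of all genes then moved from -0.08 to 4.69. On this scale 3 members (Rps18, Rpl29 and Rpl24) were called higher where 62.6% of all genes were. The members' median lay below that of all genes on both scales.

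**Figure D3:**
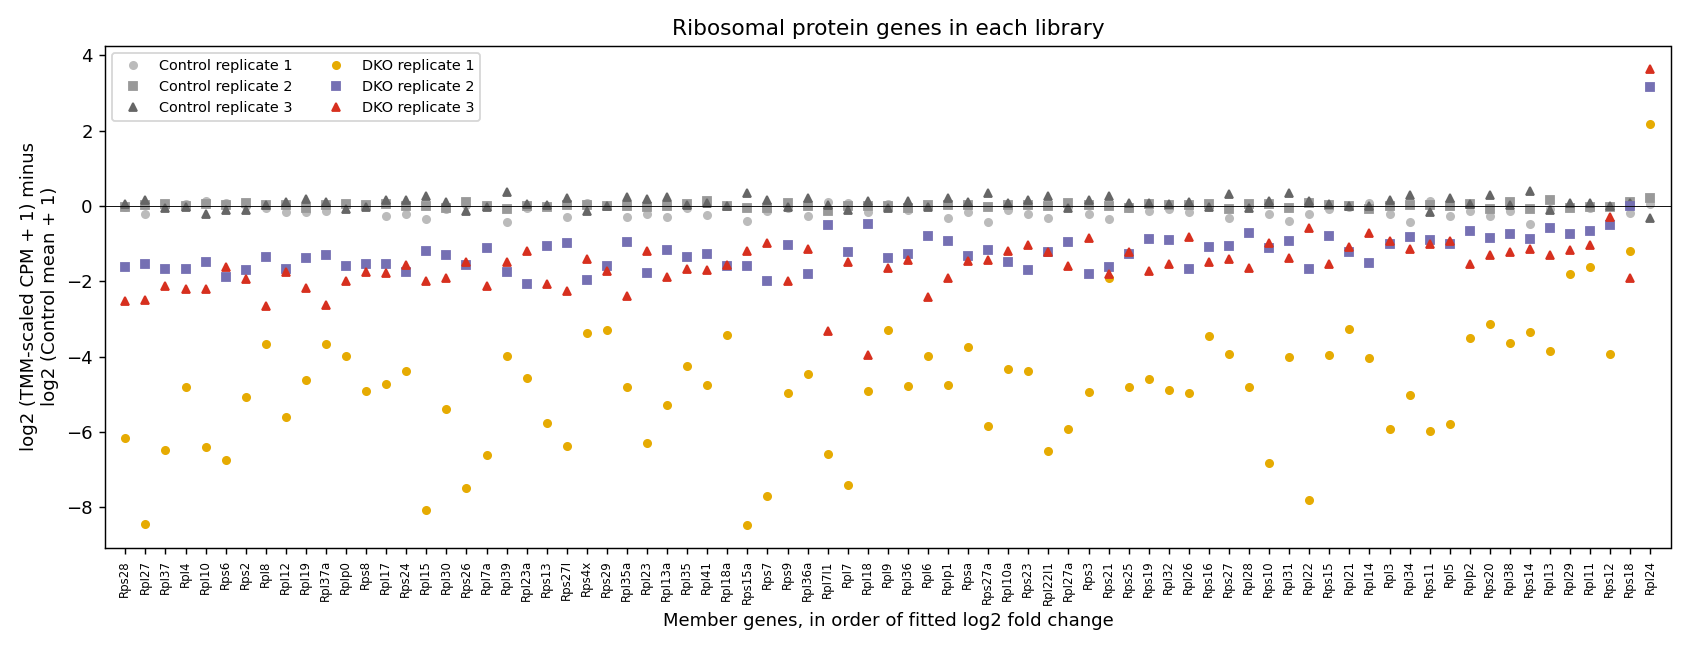
TMM-scaled level of 77 of the 79 tested members in each library as log2 (CPM + 1) minus log2 of the Control mean + 1, in order of the fitted log2 fold change. Control points lie near 0, DKO replicate 1 (circles) lies lowest for most members, DKO replicates 2 and 3 lie mostly between -3 and 0, and Rpl24 at the right end is above Control in all 3 DKO libraries.

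Rpl24 was the member called higher. It had 9, 10 and 3 Control counts and 5, 8 and 18 DKO counts, or 0.637 ± 0.303 and 13.2 ± 6.57 TMM-scaled CPM (SD, n = 3 each). All 3 DKO values lay above all Control values, with a log2 fold change of 4.33 (SE 0.83, edgeR adjusted p = 0.00225). Reads expected there from background, estimated from genes nearly silent in Control, were 2.03, 1.50 and 3.72. The call rests on few reads in both groups. With 0.567, 0.717 and 0.243 CPM in Control, Rpl24 passed the count filter only through its DKO reads. The call therefore describes a gene selected by the group in which it is high. The adjusted p of Rpl24 stayed under 0.05 in each alternative that was run, but these reuse the same few reads.

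The lowest fold change belonged to Rps28, a small protein of the small subunit on chromosome 17 at 33819027 to 33824562. It had 2059, 1744 and 1592 Control counts and 1, 30 and 25 DKO counts, a log2 fold change of -2.61 (SE 1.01) that missed the threshold (edgeR adjusted p = 0.0613) and passed it without DKO replicate 1 (0.00537) or 2 (0.0253). Rpl27 had 3904, 3868 and 3675 Control counts and 0, 68 and 56 DKO counts, with a log2 fold change of -2.54 (edgeR adjusted p = 0.151). Rpl37 had 2611, 2291 and 1860 against 1, 36 and 42. Rpl4, one of the longest proteins of the family, had 10396, 8417 and 7242 against 21, 141 and 154. In each of these genes the DKO libraries lay below all Control libraries in scaled CPM, and replicate 1 was lowest.

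At the upper end below 0 were Rps18, Rps12 and Rpl11. Rps18 had 6, 11 and 4 counts in DKO and a log2 fold change of -0.92 (edgeR adjusted p = 0.292). Its expected background reads were 4.84, 3.56 and 8.85, so it was not detectable above background in DKO replicates 1 and 3. In replicate 1 its 6 reads lay within counting error of the background. Rps12, a small-subunit protein known from cell competition in flies, had 4059, 3333 and 2957 Control counts and 15, 125 and 230 DKO counts, with a log2 fold change of -0.93 (edgeR adjusted p = 0.465). Rpl11 had 5272, 4508 and 4319 against 108, 154 and 191, with a log2 fold change of -1.05 (edgeR adjusted p = 0.338). The 108 reads of Rpl11 were the most of any member in DKO replicate 1, where 4.93 were expected from background.

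The named core members lay between these ends, and each missed the threshold. Rplp0 had 6581, 5592 and 4523 Control counts and 24, 95 and 115 DKO counts, a log2 fold change of -2.22 (edgeR adjusted p = 0.0946). Rplp1 had 24, 258 and 205 counts in DKO and Rplp2 had 15, 83 and 72. Rpsa had 7388, 7002 and 6440 in Control and 36, 144 and 209 in DKO. All 4 were lower in each DKO library than in each Control library in scaled CPM. Rps6 had 5233, 4185 and 3373 counts against 2, 59 and 112. Rps19 had 4312, 4090 and 3662 against 11, 114 and 101. Rps4x, which lies on the X chromosome, had 4867, 3925 and 3066 against 26, 52 and 121. Rpl5 had 5251, 5270 and 5349 counts against 6, 138 and 234, with a log2 fold change of -1.53 (edgeR adjusted p = 0.308). Rpl26 had 5026, 4818 and 4414 against 10, 77 and 222, Rpl3 had 62 and 104 in DKO replicates 2 and 3, and Rpl22, an RNA-binding member of the large subunit, had 0, 40 and 136. Of the copies, Rpl22l1 had 1, 50 and 80 counts in DKO, Rps27l had 4, 149 and 96 and Rpl7l1 had 0, 39 and 8. The tissue-restricted copies stayed near 0, with 0, 2 and 1 for Rpl3l, 0, 0 and 6 for Rpl10l and 0, 1 and 0 for Rpl39l.

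Set against abundant liver transcripts of the same library, the members gave different values in the DKO libraries. For each gene the expected background reads were subtracted and the rest was divided by the reads expected if it kept its Control proportion to the abundant genes, so that 1 means the Control proportion and a negative value means fewer reads than the expected background. In DKO replicate 2, where background made up 3.05% of the 6870 member reads, the median ratio over the 76 members with at least 3000 Control reads was 1.12 (interquartile range 0.876 to 1.43). The 1730 other genes with as many reads had a median of 1.03 (0.763 to 1.35), and 46 of the 76 members lay above 1 where 52.9% of the others did. In DKO replicate 3, with 5.67% background among 9046 member reads, the members' median was 5.39 (4.19 to 7.06) and that of the others 1.42 (0.425 to 3.41). There 74 of 76 members lay above 1 where 61.1% of the others did, and 64 lay above the upper quartile of the others. In DKO replicate 1 background made up 29.0% of 1004 member reads. After background subtraction the median abundant gene there kept 0.000244 of its Control mean. The members' median of 6.73 (-0.40 to 14.9) in that library thus rests on few reads. The 1730 other genes had a median of -0.51 (-7.87 to 10.8) there, and 55 of 76 members lay above 1 where 43.4% of the others did. The hepatocyte markers, several of which are among the abundant genes that set the scale, had median ratios of 0.937 and 0.949 in DKO replicates 2 and 3.

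**Figure D4:**
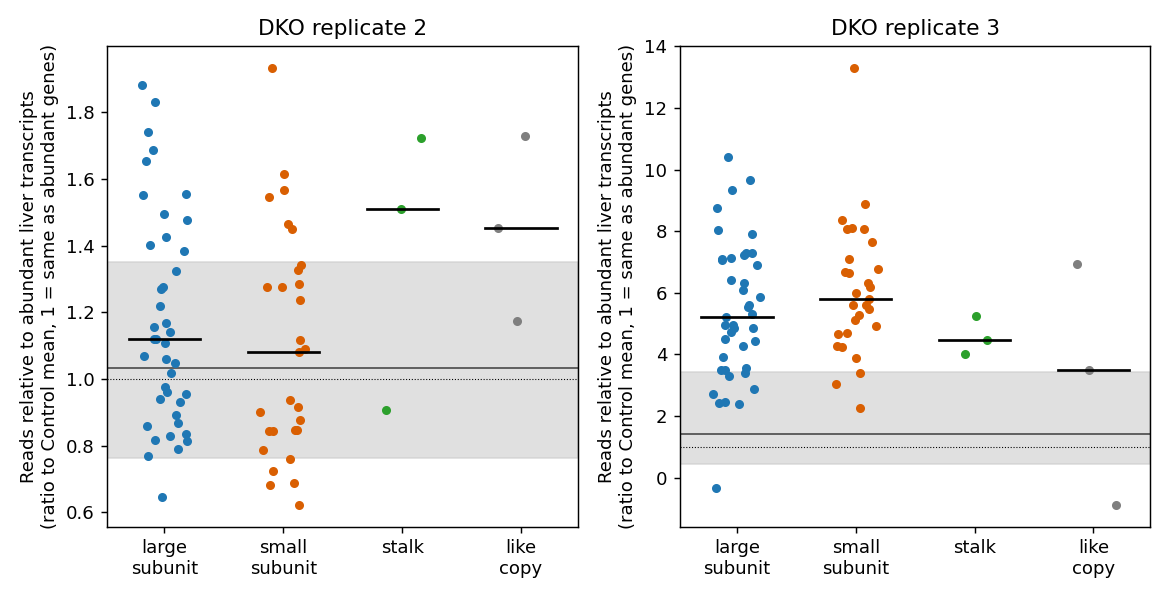
Ratio of each member's reads to the reads expected at its Control proportion to abundant liver genes, in DKO replicate 2 (left) and replicate 3 (right), by subunit, with black bars at the medians. The grey band and line give the interquartile range and median of 1730 other genes, and members scatter around the band in replicate 2 and lie mostly above it in replicate 3.

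The values of single members in these libraries, which share the Control mean, stand side by side as follows. In DKO replicate 2 the ratio was highest for Rps12, at 1.93, and was 0.647 for Rpl23a, near the lower end. In DKO replicate 3 the highest were Rps12 at 13.3 (95% counting interval 11.6 to 15.2), Rpl22 at 10.4 (8.59 to 12.5), Rpl14 at 9.66 and Rpl26 at 9.34. Rps12 was highest in both. Rplp0 was at 0.907 in replicate 2 and 4.02 in replicate 3, Rpl22 at 0.789 and 10.4, and Rplp1 at 1.51 and 4.48. The large and small subunits had medians of 5.09 and 5.71 in replicate 3. Below 1 in that library were Rpl18, with 10 reads where 13.4 were expected from background and 9.86 from liver transcripts, and Rpl7l1, with 8 reads where 12.6 and 5.23 were expected. In DKO replicate 2 the same genes had 75 and 39 reads and ratios of 1.88 and 1.73, near the upper end of that library.

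Among other genes the shortest transcripts had the highest median ratio in DKO replicate 3 but not in replicate 2. In DKO replicate 3 other genes with under 1 kb of exonic length had a median ratio of 2.16 (57 genes), against 1.49 for 1 to 2 kb, 1.33 for 2 to 4 kb and 1.51 above 4 kb. In DKO replicate 2 the same bins gave 1.00, 0.98, 1.00 and 1.10. The members' medians in replicate 3 were 5.58, 5.12, 5.62 and 5.96, the first from 10 genes and the last from 6. Members with a run of at least 8 C or T bases over the start, such as the windows shown for Rpl7a and Rps6, had a median ratio of 5.24 in DKO replicate 3 (16 genes), and those with a window but no run 5.47 (41 genes). The median log2 fold changes of these sets were -1.81 and -1.94.

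Other genes of translation gave the following counts in the same fit, beside 31.3% of all genes called higher and 12.8% lower. Of 6 ribosomal proteins outside the naming rule, among them Fau and Rack1, 0 were called, with a median log2 fold change of -2.34, and 6 of 6 lay below 0. Fau, which is made as a fusion with a ubiquitin-like protein, had 3350, 3306 and 2974 Control counts and 18, 54 and 57 DKO counts (log2 fold change -2.29, edgeR adjusted p = 0.0563). Their median ratio to abundant transcripts was 0.901 in DKO replicate 2 and 3.14 in replicate 3, over 4 genes. Of 12 elongation factors and other TOP mRNAs 1 was called lower, Eef1d of the elongation complex (1329, 1163 and 931 against 31, 22 and 14, edgeR adjusted p = 0.0465). This call was lost without any of the 3 Control libraries or without DKO replicate 3. It was also lost with limma-voom, DESeq2's size factors, TMM computed without mitochondrial transcripts, background subtraction and the replicate block (adjusted p = 0.0509 to 0.246). The list's median was -2.04, and its ratio in DKO replicate 3 was 2.96 over 11 genes. Of 29 initiation factors 7 were called lower and 0 higher, with a median of -2.20. Eif3b and Eif3f, subunits of the scaffold that recruits the small subunit to mRNA, fell with log2 fold changes of -3.96 and -2.96 (edgeR adjusted p = 0.00203 and 0.00231), and in DKO replicate 2 had 2 and 6 reads where 4.29 and 4.20 were expected from background. On the abundant-gene scale their fold changes turned to 1.48 and 2.51.

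Genes of the mitochondrial ribosome, which makes the proteins encoded by mitochondrial DNA, had 22 of 76 tested members called lower and 1 higher, with a median of -1.93. Mrps31 fell from 580, 534 and 425 counts to 1, 2 and 3 and Mrpl55 from 324, 372 and 302 to 0, 0 and 1 (edgeR adjusted p = 0.00125 and 0.00127). From background alone 4.63, 2.85 and 6.42 reads were expected in DKO for Mrps31 and 1.88, 1.33 and 3.40 for Mrpl55, more than were counted. On the abundant-gene scale both calls were lost, with log2 fold changes of -0.32 and -2.84 (edgeR adjusted p = 0.828 and 0.0856). The ratio to abundant transcripts over 10 of these genes was 1.29 in DKO replicate 2 and 4.62 in replicate 3. Ribosome biogenesis genes had 2 of 35 higher and 5 lower. Tcof1, a nucleolar factor of ribosomal RNA synthesis, had 64, 30 and 44 counts against 44, 71 and 68 and rose with a log2 fold change of 4.36 (edgeR adjusted p = 0.000783), and Bop1, which processes ribosomal RNA of the large subunit, had 340, 244 and 274 against 0, 0 and 1 and fell with one of -5.83 (edgeR adjusted p = 0.00161). For Tcof1 8.67, 7.64 and 16.7 DKO reads were expected from background. For Bop1 4.87, 4.29 and 9.40 DKO reads were expected from background, and its call was lost on the abundant-gene scale (log2 fold change -2.63, edgeR adjusted p = 0.107). Among 18 genes of translation control by mTOR and Myc 1 was higher (Mycn) and 4 were lower. Mycn had 13, 10 and 13 DKO reads where 5.02, 4.23 and 10.8 were expected from background. With 13, 15 and 13 Control reads it passed the count filter only through its DKO reads, so its call describes a selected gene. Eif4ebp1, an inhibitor of cap-dependent initiation that mTOR switches off, had 622, 717 and 590 counts against 0, 0 and 6 and fell with a log2 fold change of -4.55 (edgeR adjusted p = 0.00555). There 3.99, 2.59 and 6.58 DKO reads were expected from background, and the call was lost on the abundant-gene scale (log2 fold change -0.61, edgeR adjusted p = 0.694).

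Ribosomal protein pseudogenes took a larger share of reads in DKO. Of 248 found, 64 passed the count filter, 36 were called higher and 1 lower. A gene nearly silent in Control passes the filter only through its DKO reads, so this count describes selected genes. Over all 248 the reads summed to 194, 208 and 237 CPM in Control and 1724, 1160 and 1088 CPM in DKO, while the members summed to lower shares as given above. Rps15a-ps4 had 6, 2 and 3 reads in Control and 49, 14 and 20 in DKO (edgeR adjusted p = 0.00069), and its parent Rps15a had 3504, 3706 and 4322 against 0, 67 and 141. Rpl21-ps7 had 1, 0 and 1 against 10, 7 and 14. In DKO replicate 1 the 248 pseudogenes together had 534 reads where the 82 members had 1004, and in Control replicate 1 they had 3073 where the members had 337370.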

How the data were processed

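Gene read counts of 3 Control and 3 DKO liver libraries were used as the authors deposited them, unnormalized counts per Ensembl gene. The submitters' processing notes name STAR, HTSeq and mm10, without versions, and neither strand setting nor annotation was found stated. The 5 table entries without a gene were left out of library sizes (65.1% to 66.7% of reads in Control and 95.3% to 97.3% in DKO). Names matched 42462 of 43346 identifiers. Exons and transcripts came from GENCODE M21 and promoters from RefSeq.

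Counts of all genes were tested with edgeR 4.0.16 in R 4.3.3 (quasi-likelihood, robust, TMM, filterByExpr, no covariates, Benjamini-Hochberg adjustment over all tested genes, two-sided). SE is the absolute log2 fold change divided by the root of the F statistic. Background reads per kb were estimated on 8597 coding genes nearly silent in Control (up to 10 counts in sum), in 10 bins of GC content. Scripts were tested on simulated counts. Intervals (95%, Wilson for shares, exact Poisson for counts) and floors of 3 counts cover counting error only, since reads carry no molecular identifiers. Alternatives were DESeq2 1.42.0, limma-voom (limma 3.58.1), other scalings and filters, background subtraction, a block for replicate number, and omission of each library in turn.

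The members and gene lists were chosen with earlier results of these data known. Named genes are fixed members and copies, the 4 highest and 4 lowest levels and fold changes, and up to 2 genes per list with the smallest adjusted p. Rpl29, Rpl18, Rps14, Rpl23a, Rpl14, Rps15a, Rps3, Rpl9, Rpl21 and Rpl7a were singled out after their values were seen. Some single genes are not reported here. No libraries held identical values.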

Additional observations from a re-analysis of the deposited data

How the results depend on the processing

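Rpl24, which passed the main count filter only through its DKO reads, was called higher in each alternative. In all but 2 of them 1 member was called higher. Without a count filter 2 members were called higher, beside 11477 of 30209 tested genes. On the abundant-gene scale 3 were, beside 62.6% of all tested genes. The count of lower members was 0 in edgeR with TMM, 62 in DESeq2, 27 with DESeq2's size factors in edgeR and 57 without a filter. With TMM computed without mitochondrial transcripts it was 2, beside 2220 of 15536 tested genes. When each library was left out it was 0 to 48. It was 0 with limma-voom, with 1 CPM in 3 libraries, after background subtraction, on the abundant-gene scale and at an adjusted p of 0.01. The cause of these differences was not tested. With a replicate block 2 members were called lower (Rps28 and Rpl7l1) and 1 higher, beside 2179 and 4143 of 15561 tested genes. The correlations of same-numbered libraries, as deviations from their group means, were 0.13, 0.085 and -0.03. They show no pairing by number, but cannot exclude one because DKO values also carry background reads.

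The members' median log2 fold change lay between -2.59 and -1.45 in every alternative except the abundant-gene scale, where it was 1.94. The difference in summed share was -1.78 to -1.29 percentage points when each library was left out and 14.1 percentage points per reads of the abundant genes. The summed ratio to abundant transcripts was 9.28 in DKO replicate 1, with 20.9 on a set of 518 abundant genes (over 10000 Control counts) and 6.88 without background subtraction. It was 5.54 in DKO replicate 3, with 4.44 and 5.29. It was 1.15 in DKO replicate 2 and moved less than the spread between Control libraries. The ratio of the 90th to the 10th percentile of the Control level was 5.02 per exonic kb, 4.83 per kb of mRNA, 4.91 to 5.24 when each Control library was left out, and 11.7, 14.3 and 14.0 per kb of stretches of 50, 75 and 100 bases found in no other annotated transcript. The stretches and the mRNA length were chosen after seeing the data, and stretches found once in the genome were not run because no genome was used here.

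On the abundant-gene scale, where background reads were not subtracted, the log2 fold changes of 31 named genes turned positive. They were 2.21 for Rplp0, 1.87 for Rplp1, 2.68 for Rplp2, 2.56 for Rpsa, 1.18 for Rps6, 1.98 for Rps19, 2.00 for Rpl5, 4.28 for Rpl11, 2.22 for Rpl26, 1.84 for Rpl41, 1.93 for Rpl3, 0.96 for Rpl10, 1.93 for Rpl22, 2.33 for Rpl39, 2.76 for Rps4x, 2.43 for Rps27, 1.29 for Rpl7, 1.59 for Rpl22l1, 0.49 for Rpl7l1, 1.04 for Rps27l, 0.67 for Rps28, 0.39 for Rpl27, 0.87 for Rpl37, 1.63 for Rpl4, 4.08 for Rps18, 2.98 for Rps12, 2.39 for Fau, 4.32 for Eef1d, 1.28 for Naca, 1.48 for Eif3b and 2.51 for Eif3f. A positive value on this scale is not always a background-subtracted ratio above 1. In DKO replicates 2 and 3 those ratios were 1.92 and -4.71 for Rps18, 1.73 and -0.88 for Rpl7l1, and -0.08 and 0.40 for Eif3b. Of the 600 values of named genes under all alternatives, 480 kept their direction and side of the threshold, 76 passed it only there and 13 passed it no longer. Of the latter 4 were on the abundant-gene scale (Mrps31, Mrpl55, Bop1 and Eif4ebp1) and 9 concerned Eef1d. Depth limits DKO replicate 1 most, where the members had 1004 reads.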
